A study of Mus musculus with 6 samples.

Results

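The Reg family of mouse comprises small secreted proteins built around a C-type lectin-like domain, and 6 of its genes (Reg1, Reg2, Reg3a, Reg3b, Reg3d and Reg3g) were examined in RNA from pancreatic islets. The members were taken by gene name, and all 6 were found among the 54556 genes of the deposited table. The libraries labelled knockout, 3 in number, came from C57BL/6 mice with Mettl3 flox/flox and RIP-Cre, in which a rat insulin promoter drives Cre recombinase in β cells. The controls were 3 libraries from C57BL/6 mice with Mettl3 flox/flox and no Cre, so both groups carry the floxed alleles. All mice were on normal chow and 8 weeks old. No library was labelled with Cre alone, so Cre and the deletion cannot be told apart, and pooling of islets from several mice is neither stated nor excluded by the labels. Mettl3 is the methyltransferase that places N6-methyladenosine on mRNA.

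Reg genes are named for their discovery in regenerating islets, but in the healthy pancreas their main source is the acinar cell, which secretes Reg1 and Reg2 into pancreatic juice and raises Reg3b (also called pancreatitis-associated protein) in inflammation. In the small intestine Reg3b and Reg3g are made by enterocytes and Paneth cells as antibacterial lectins. Reg3g binds the peptidoglycan of Gram-positive bacteria and helps to keep them away from the epithelium. Cytokines such as IL-22 and IL-6 induce these genes through STAT3, and microbial signals raise Reg3g through MyD88.

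The 6 genes lie in a single cluster on chromosome 6, from 78370657 to 78468872 (GRCm38), a span of 98.2 kb. Along the chromosome their order is Reg3b (78370657 to 78373466, plus strand), Reg3d (78375874 to 78378865, minus), Reg3a (78380709 to 78383827, plus), Reg2 (78395623 to 78408106, plus), Reg1 (78422711 to 78428667, plus) and Reg3g (78466269 to 78468872, minus). No other gene of the table overlapped any of them. The nearest protein-coding genes were Ctnna2, which encodes a catenin of neurons, 391.0 kb before the cluster, and the predicted gene Gm20594, 1349 kb after it. Ctnna2 averaged 1.32 ± 0.119 FPKM (fragments per kilobase of gene, scaled to library size) in labelled-knockout libraries and 0.967 ± 0.128 FPKM in flox/flox libraries (SD, n = 3 each), a difference that did not pass the test used below (limma adjusted p = 0.198). Gm20594 had no read in any library.

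**Figure D1:**
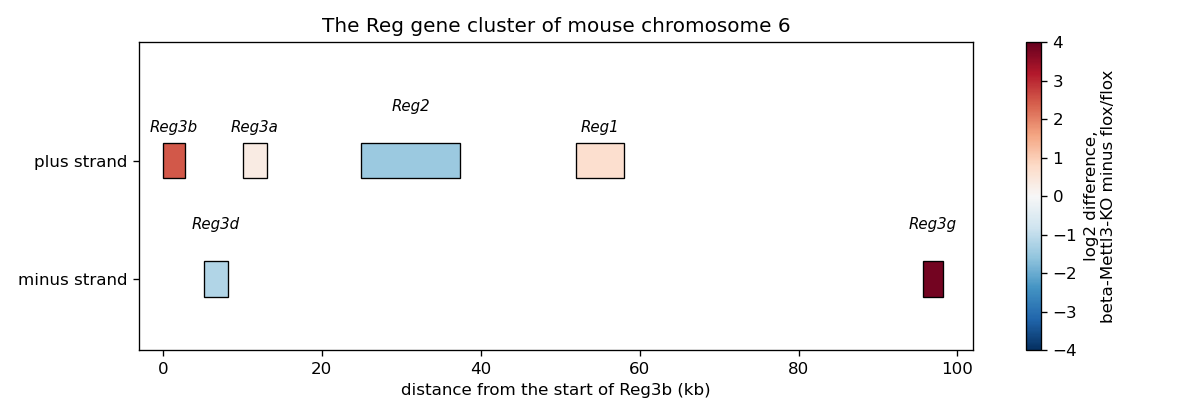
Position of the 6 Reg genes in kilobases from the start of Reg3b (horizontal axis) and their strand (vertical axis), with each box coloured by the log2 difference of labelled-knockout minus flox/flox libraries. Signs alternate along the cluster up to Reg1, beginning with Reg3b at 2.49 and Reg3d at -1.19, and the member at the far end, Reg3g, has the highest value, 3.86.

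In the GENCODE M21 annotation, whose gene spans equal those of the deposited table for all 6 genes, each member has a main coding transcript of 6 exons, except Reg1 with 7. Coding sequences of the members were 62.8% to 82.6% identical over 15 pairs, highest for Reg1 and Reg2 and 76.4% for Reg3b and Reg3g. The longest stretch that coding transcripts of 2 members share without a mismatch was 35 bases, between Reg3b and Reg3g. Read length is not given in the sources used here, so how often a read could be placed on the wrong member is not known. The promoters (250 bases before to 50 after the annotated start, RefSeq, GRCm38.p6) are printed for the 4 members with most reads, Reg3g and Reg3b first because they vary together across the libraries, then Reg1 and Reg2, whose levels part in the labelled-knockout libraries. Capitals mark matches on either strand to the TATA box TATAAA and to the STAT motif TTCNNNGAA.
Reg3g (chr6:78468825-78469124, minus strand): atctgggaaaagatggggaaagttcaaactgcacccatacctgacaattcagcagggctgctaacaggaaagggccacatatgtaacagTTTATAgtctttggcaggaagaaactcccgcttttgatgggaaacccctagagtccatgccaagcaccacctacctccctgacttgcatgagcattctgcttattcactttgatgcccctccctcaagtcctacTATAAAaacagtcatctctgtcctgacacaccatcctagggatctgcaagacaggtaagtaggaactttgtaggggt
Reg3b (chr6:78370635-78370934, plus strand): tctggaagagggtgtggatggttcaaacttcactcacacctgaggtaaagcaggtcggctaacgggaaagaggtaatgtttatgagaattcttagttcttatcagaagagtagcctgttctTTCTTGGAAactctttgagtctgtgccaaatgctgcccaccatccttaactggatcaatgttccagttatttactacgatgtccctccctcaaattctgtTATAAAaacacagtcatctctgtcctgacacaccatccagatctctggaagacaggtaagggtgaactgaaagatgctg
Reg1 (chr6:78425733-78426032, plus strand): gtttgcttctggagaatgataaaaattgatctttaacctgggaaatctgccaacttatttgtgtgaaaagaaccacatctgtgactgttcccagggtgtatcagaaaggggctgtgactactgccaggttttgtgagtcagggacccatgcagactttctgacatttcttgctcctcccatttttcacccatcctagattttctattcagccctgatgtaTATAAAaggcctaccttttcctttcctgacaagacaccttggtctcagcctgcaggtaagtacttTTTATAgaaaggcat
Reg2 (chr6:78404905-78405204, plus strand): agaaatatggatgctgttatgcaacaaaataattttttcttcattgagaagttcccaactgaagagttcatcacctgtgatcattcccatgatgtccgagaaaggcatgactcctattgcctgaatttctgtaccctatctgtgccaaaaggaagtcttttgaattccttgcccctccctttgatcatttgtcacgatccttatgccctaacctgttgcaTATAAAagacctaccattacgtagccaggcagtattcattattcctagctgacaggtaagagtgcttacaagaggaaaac
All 4 promoters hold TATAAA on the sense strand, starting 27 bases before the annotated start in Reg3g, 29 in Reg3b and 30 in both Reg1 and Reg2, whereas 13.6% of the 32544 promoters in the same table hold it on either strand. The promoters of Reg3a and Reg3d do not hold it. TTCNNNGAA occurred in Reg3b, starting 129 bases before the start, and in Reg3d, 238 bases before it, and in 8.33% of all promoters. Of the other motifs searched on both strands, the E-box CACCTG occurred in Reg2, Reg3a, Reg3b and Reg3d (20.3% of all promoters) and the C/EBP-type motif TTGCNNAA in Reg2 and Reg3a (10.8%). No matches to different motifs overlapped. A match describes these letters only.

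Reads recovered from the FPKM values came to 16719393 to 18387313 per labelled-knockout library and 16398862 to 17691055 per flox/flox library. Islet hormones identified the tissue in every library, with Ins2 at 77888 to 84599 FPKM in labelled-knockout libraries and 171286 to 221369 FPKM in flox/flox libraries. Mettl3 itself was at 4.06, 4.20 and 4.15 FPKM in labelled-knockout replicates 1 to 3, against 3.43, 2.89 and 3.93 FPKM in flox/flox replicates 1 to 3 (log2 difference 0.25 ± 0.11 SE, limma adjusted p = 0.12). Reads over the whole gene cannot show the loss of some exons, so the labels were not checked by these values, and each direction below is that of libraries labelled knockout. Replicate 3 lay between the others of its group in 51.3% of tested genes in labelled-knockout libraries and in 41.7% in flox/flox libraries, and for 5 and 6 of the 6 Reg genes. Whether replicate 3 is a separate sample is not given in the labels.

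Reg1 was the most abundant member in every library. It had 26.8, 136 and 73.9 FPKM in labelled-knockout replicates 1 to 3, against 27.1, 62.4 and 38.8 FPKM in flox/flox replicates 1 to 3. What followed it differed between the groups. In labelled-knockout libraries the mean level ran from Reg1 (79.0 FPKM) over Reg3b (22.9), Reg3g (13.9), Reg2 (8.43) and Reg3a (2.24) to Reg3d (0.598). In flox/flox libraries it ran from Reg1 (42.8 FPKM) over Reg2 (28.9), Reg3b (2.76), Reg3d (1.97) and Reg3a (1.91) to Reg3g (0.108). Neighbours in both orders overlapped in their ranges over the 3 libraries, except that every value of Reg2 was above every value of Reg3a in labelled-knockout libraries, and of Reg3b in flox/flox libraries, where Reg3a likewise stood above Reg3g. The table divides Reg3g by 2114 bases, while its only coding transcript has 771 bases. Per length of the longest coding transcript Reg3g reached 3.67, 76.1 and 34.3 FPKM in labelled-knockout replicates 1 to 3, against 4.72, 64.6 and 31.0 FPKM for Reg3b, so the order of these 2 genes depends on the length used.

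**Figure D2:**
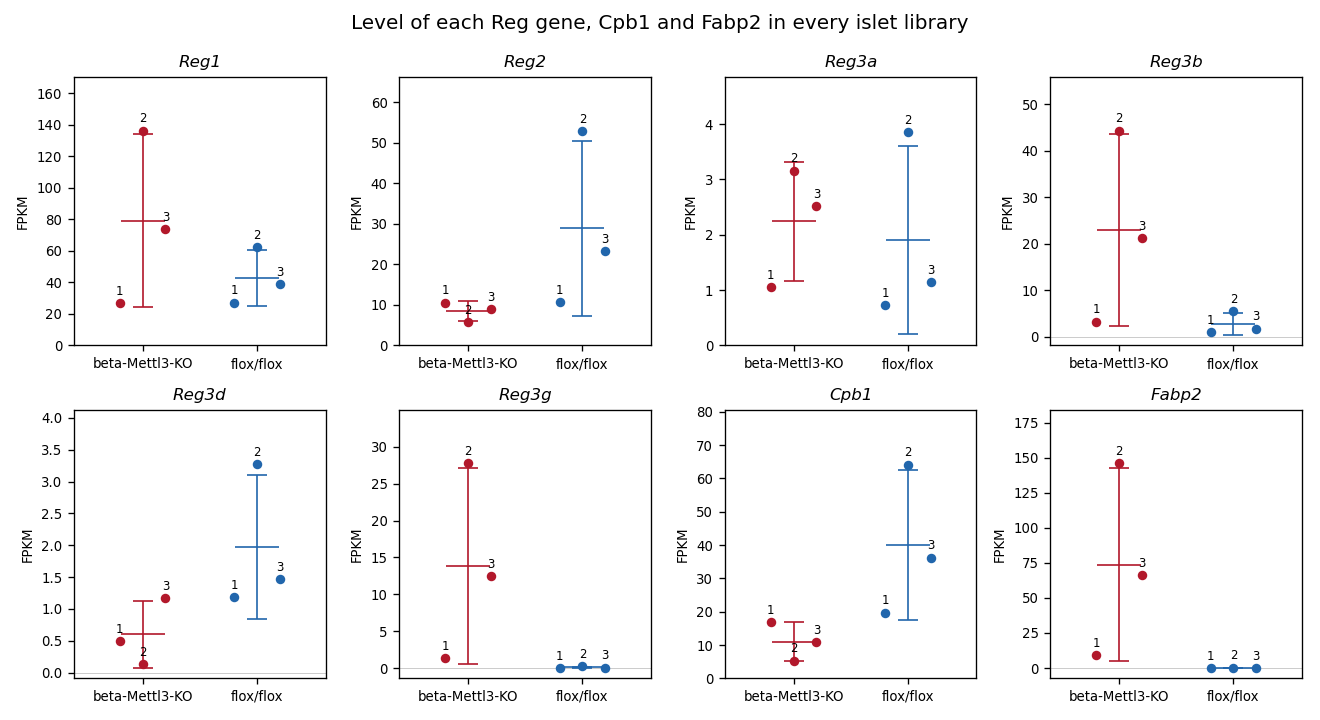
FPKM (vertical axis, linear, starting at or near 0) of each Reg gene, of the acinar gene Cpb1 and of the enterocyte gene Fabp2 in the 3 labelled-knockout (left, red) and 3 flox/flox libraries (right, blue), with replicate numbers, mean and SD. Reg3g, like Fabp2, is near 0 in all flox/flox libraries, while Reg2 and Cpb1 are highest in flox/flox replicate 2, at 52.9 and 64.1 FPKM.

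Summed over the 6 genes, the family came to 43.4, 218 and 120.3 FPKM in labelled-knockout replicates 1 to 3, against 40.8, 128 and 66.5 FPKM in flox/flox replicates 1 to 3, and the groups overlapped. The log2 ratio of the group means was 0.70 in FPKM and 1.33 in CPM (reads scaled to a library's own total). CPM are not divided by gene length, so these sums differ in the weight of each member as well as in scaling. Reg3b and Reg3g together took 15.5%, 45.4% and 39.3% of the family's reads in labelled-knockout replicates 1 to 3, and 3.35%, 5.69% and 3.40% in flox/flox replicates 1 to 3. Reg2 made up 24.2%, 2.67% and 7.45% of the summed FPKM in labelled-knockout replicates 1 to 3, and 26.2%, 41.3% and 35.0% in flox/flox replicates 1 to 3, with little between the replicates 1. Reg1 stayed between 48.7% and 66.5% of the sum in all 6 libraries. In bulk RNA, more cells of a type and more RNA per cell cannot be told apart.

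Reg3g, the lectin that binds peptidoglycan, was higher in every labelled-knockout library. Its level was 1.34, 27.7 and 12.5 FPKM (59, 1147 and 548 reads) in labelled-knockout replicates 1 to 3, against 0.0313, 0.229 and 0.0637 FPKM (1, 7 and 2 reads) in flox/flox replicates 1 to 3. The groups did not overlap, and labelled-knockout replicate 1 was 20.7-fold below replicate 2 of its own group. As a share of all reads the ratio of the group sums was 169, with a 95% exact interval of 91.6 to 353 that covers counting error only, and the ratio was 85.5 without labelled-knockout replicate 2 and 382 without flox/flox replicate 2. On the log2(FPKM + 0.5) scale, which understates the change of a gene near 0, Reg3g rose by 3.86 ± 0.92 (SE, n = 3 each, limma adjusted p = 0.0199). The gene passed the filter on low values only through the labelled-knockout group. Leaving out labelled-knockout replicate 3, flox/flox replicate 1 or flox/flox replicate 3 each ended the call (adjusted p = 0.0727, 0.0582 and 0.0602), as did testing all genes unfiltered (adjusted p = 0.163) and limma-voom on the recovered reads (adjusted p = 0.317). Without labelled-knockout replicates 2 and 3 together it fell under the filter.

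Reg3b, the pancreatitis-associated protein with antibacterial activity in the gut, had a like profile at a higher level in flox/flox libraries. It was at 3.23, 44.3 and 21.2 FPKM (77, 989 and 503 reads) in labelled-knockout replicates 1 to 3, against 1.04, 5.52 and 1.71 FPKM (18, 91 and 29 reads) in flox/flox replicates 1 to 3. Labelled-knockout replicates 2 and 3 were above every flox/flox library, and replicate 1 was below flox/flox replicate 2, so the groups overlapped. The log2 difference of 2.49 ± 0.94 (SE) did not pass (limma adjusted p = 0.0838). It passed when scaled to each library's total reads (2.84, adjusted p = 0.0392) and without labelled-knockout replicate 1 (3.51, adjusted p = 0.0123), and without labelled-knockout replicates 2 and 3 it was 0.45 (adjusted p = 0.759).

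Reg1, a main secretory product of acinar cells in the Reg family, overlapped between the groups. Labelled-knockout replicates 2 and 3 were its 2 highest libraries, and labelled-knockout replicate 1 was its lowest. On the log2 scale Reg1 differed by 0.67 ± 0.59 (SE, limma adjusted p = 0.417). It came to 0.14 without labelled-knockout replicate 2 and to 1.30 without labelled-knockout replicate 1, and its sign was negative when labelled-knockout replicates 2 and 3 were both left out (-0.58, adjusted p = 0.492).

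Reg2, the close relative of Reg1 and likewise an acinar product, went the other way. It had 10.5, 5.80 and 8.97 FPKM (209, 108 and 177 reads) in labelled-knockout replicates 1 to 3, against 10.7, 52.9 and 23.3 FPKM (154, 727 and 329 reads) in flox/flox replicates 1 to 3. All labelled-knockout libraries were below all flox/flox libraries, by little between replicate 1 of each group. As a share of own reads they overlapped, with 11.4 CPM in labelled-knockout replicate 1 and 8.71 CPM in flox/flox replicate 1. The log2 difference of -1.48 ± 0.54 (SE) did not pass (limma adjusted p = 0.076). It passed without flox/flox replicate 1, at -2.03 (adjusted p = 0.0193), and was -0.91 without flox/flox replicate 2.

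Reg3d, a member related to the islet neogenesis-associated protein of hamster, was the scarcest in labelled-knockout libraries. It had 0.491, 0.131 and 1.17 FPKM (8, 2 and 19 reads) in labelled-knockout replicates 1 to 3, against 1.18, 3.27 and 1.46 FPKM (14, 37 and 17 reads) in flox/flox replicates 1 to 3. The groups did not overlap, but labelled-knockout replicate 3 and flox/flox replicate 1 were 1.17 and 1.18 FPKM, and the groups overlapped as a share of own reads. The gene passed the filter on low values only through the flox/flox group. On the log2 scale Reg3d differed by -1.19 ± 0.45 (SE, limma adjusted p = 0.0835), and quantile normalization passed it at -1.50 (adjusted p = 0.0439).

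Reg3a, another lectin of the pancreatitis-associated group, was low and overlapped. It had 1.05, 3.16 and 2.51 FPKM (18, 51 and 43 reads) in labelled-knockout replicates 1 to 3, against 0.721, 3.86 and 1.14 FPKM (9, 46 and 14 reads) in flox/flox replicates 1 to 3. Flox/flox replicate 2 was its highest library. On the log2 scale Reg3a differed by 0.32 ± 0.53 (SE, limma adjusted p = 0.673), and its sign turned without flox/flox replicate 1 (-0.06) and without labelled-knockout replicates 2 and 3 (-0.41).

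Of the 6 members, all tested, 1 rose, 0 fell and 5 did not pass, while 34.0% of the 14497 tested genes passed in either direction, 16.9% as higher and 17.2% as lower. The 0 falls compare with 4 of the 6 members at an unadjusted limma p under 0.05, of which Reg2 and Reg3d had negative differences. The share of all tested genes under that unadjusted p was not computed, so this count does not set the members apart. The groups did not overlap for 3 members in FPKM, against 50.5% of tested genes. In CPM they did not overlap for 1, Reg3g, and the share of all genes in CPM was not computed. The median log2 difference of the 6 was 0.50, beside 0.00 over all tested genes. Scaling to own reads moved the median of all genes to 0.36 and the calls to 7643 higher and 709 lower, against 2446 higher and 2489 lower with the deposited scaling, and relative to that median Reg2 was still lower and Reg3g still higher. Among the 15 ratios between 2 members, that of Reg2 to Reg3g had the widest gap between the groups, with a mean log2 ratio of -0.01 in labelled-knockout libraries and 5.33 in flox/flox libraries. It did not overlap, and p = 0.1 in a two-sided exact permutation test (0.115 adjusted over the 15) is the lowest that 3 libraries a group can give.

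**Figure D3:**
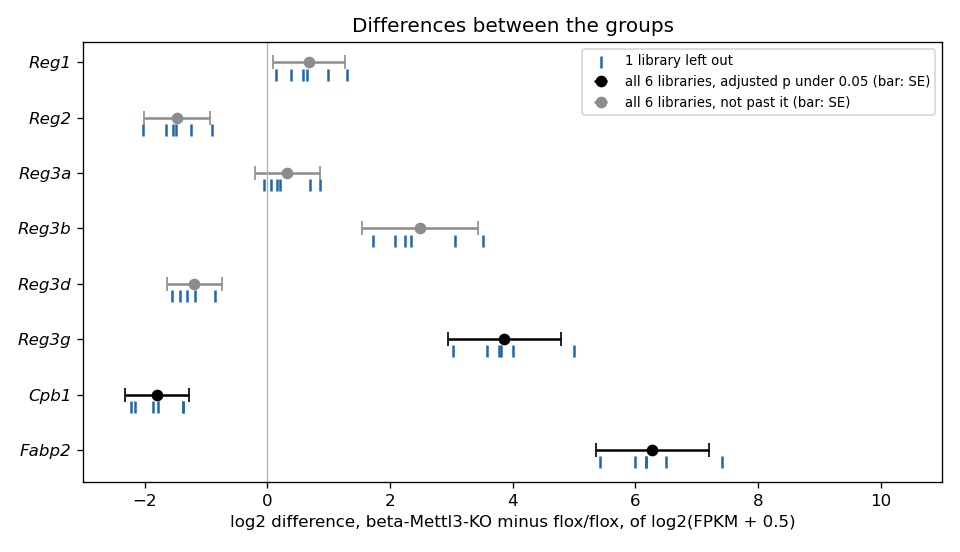
Log2 difference of labelled-knockout minus flox/flox libraries on the log2(FPKM + 0.5) scale (horizontal axis) for the 6 Reg genes, Cpb1 and Fabp2, with SE bars and blue ticks for fits that left out 1 library. Reg3g, Cpb1 and Fabp2 are past the threshold, and among the Reg genes the ticks cross 0 for Reg3a, down to -0.06.

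Within the groups, the Reg genes were set beside Cpb1, a pancreatic carboxypeptidase of acinar cells, and Fabp2, which carries fatty acids in enterocytes. Fabp2 was at 8.95, 146 and 66.0 FPKM in labelled-knockout replicates 1 to 3, against 0, 0.287 and 0 FPKM in flox/flox replicates 1 to 3. Cpb1 was at 16.9, 5.28 and 10.8 FPKM in labelled-knockout replicates 1 to 3, against 19.7, 64.1 and 36.2 FPKM in flox/flox replicates 1 to 3. In the labelled-knockout libraries these 2 genes thus ran in opposite orders. Reg1, Reg3a, Reg3b and Reg3g had the order of Fabp2 (replicate 2, then 3, then 1), an order shared by 24.1% of tested genes. Reg2 had the order of Cpb1 (replicate 1, then 3, then 2), shared by 27.2%, and Reg3d had neither. In the flox/flox libraries all 6 members had the order of Cpb1 (replicate 2, then 3, then 1), shared by 20.6% of tested genes. With 3 libraries a group, orders were not tested.

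**Figure D4:**
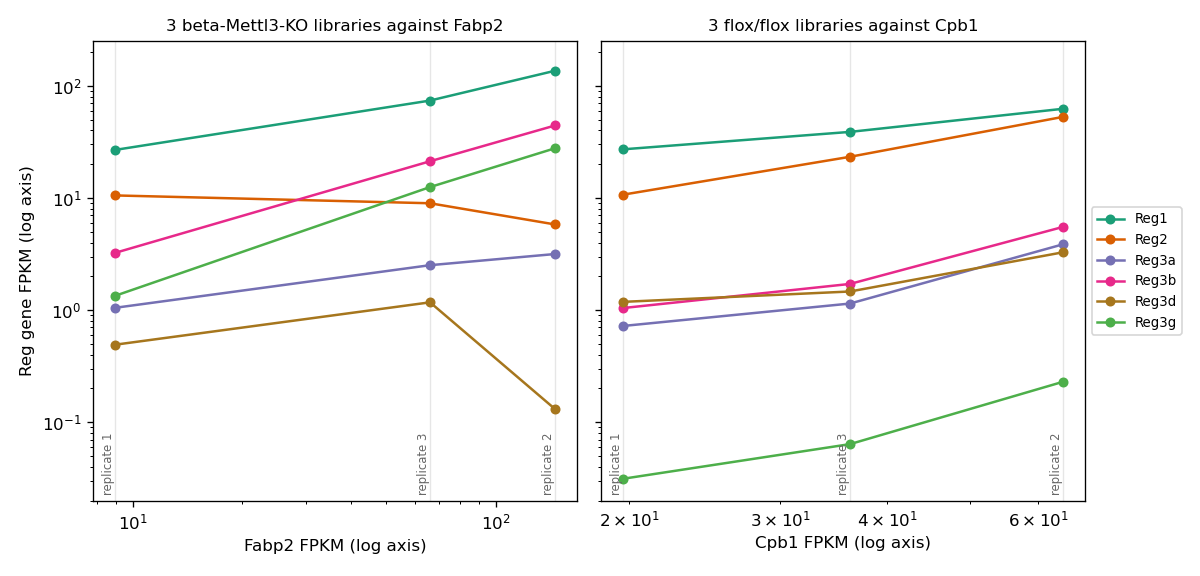
FPKM of the 6 Reg genes (vertical log axis) against Fabp2 in the 3 labelled-knockout libraries (left) and against Cpb1 in the 3 flox/flox libraries (right), both on log axes, with lines joining the points of a gene. At left Reg3g and Reg3b climb with Fabp2 while Reg2 declines, and at right all 6 climb with Cpb1.

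Reg3g and Reg3b kept nearly fixed ratios to Fabp2 across labelled-knockout libraries in which all 3 genes varied over 10-fold. The ratio of Reg3g to Fabp2 was 0.15, 0.19 and 0.189 in labelled-knockout replicates 1 to 3, while Reg3g varied 20.7-fold and Fabp2 16.3-fold. The ratio of Reg3b to Fabp2 was 0.361, 0.303 and 0.322, while Reg3b varied 13.7-fold. Against Cpb1 the same genes were far from fixed in labelled-knockout libraries, with Reg3b at 0.192, 8.39 and 1.96 times Cpb1 in replicates 1 to 3. In flox/flox replicates 1 to 3 Reg3b was at 0.053, 0.086 and 0.0473 times Cpb1, a narrower spread.

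Reg2 was the member closest to a fixed ratio to Cpb1. That ratio was 0.625, 1.10 and 0.828 in labelled-knockout replicates 1 to 3, against 0.544, 0.824 and 0.643 in flox/flox replicates 1 to 3, with overlapping groups, although Reg2 and Cpb1 both varied over 9-fold across the 6 libraries. Reg1 had 1.38, 0.973 and 1.07 times the level of Cpb1 in flox/flox replicates 1 to 3, but 1.59, 25.8 and 6.83 times in labelled-knockout replicates 1 to 3. A calculation chosen after the values were seen took the mean flox/flox ratio of Reg1 to Cpb1, 1.14, times the Cpb1 level of each labelled-knockout library, and subtracted it from Reg1 there. Before the subtraction Reg1 was 2.99, 0.934 and 1.12 times Fabp2 in labelled-knockout replicates 1 to 3. The remainder was 7.55, 130.0 and 61.5 FPKM there, which is 0.844, 0.893 and 0.932 times Fabp2. With the highest and the lowest of the flox/flox ratios in place of their mean it was 0.395 and 1.161 times Fabp2 in replicate 1, where the subtraction matters most, 0.884 and 0.899 in replicate 2 and 0.893 and 0.96 in replicate 3. For Reg3a the same remainder was 0.0363, 0.0201 and 0.0311 times Fabp2, on few reads, and for Reg2 it was between -0.0862 and 0.0259 times Fabp2. For Reg3d, also on few reads, it was between -0.0404 and 0.00946 times Fabp2. For Reg3b it was 0.244, 0.301 and 0.312 times Fabp2 in labelled-knockout replicates 1 to 3, against 0.361, 0.303 and 0.322 before the subtraction. The subtraction thus made this ratio less even. For Reg3g the remainder was 0.145, 0.19 and 0.189 times Fabp2. The cell source of these transcripts was not tested.

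**Figure D5:**
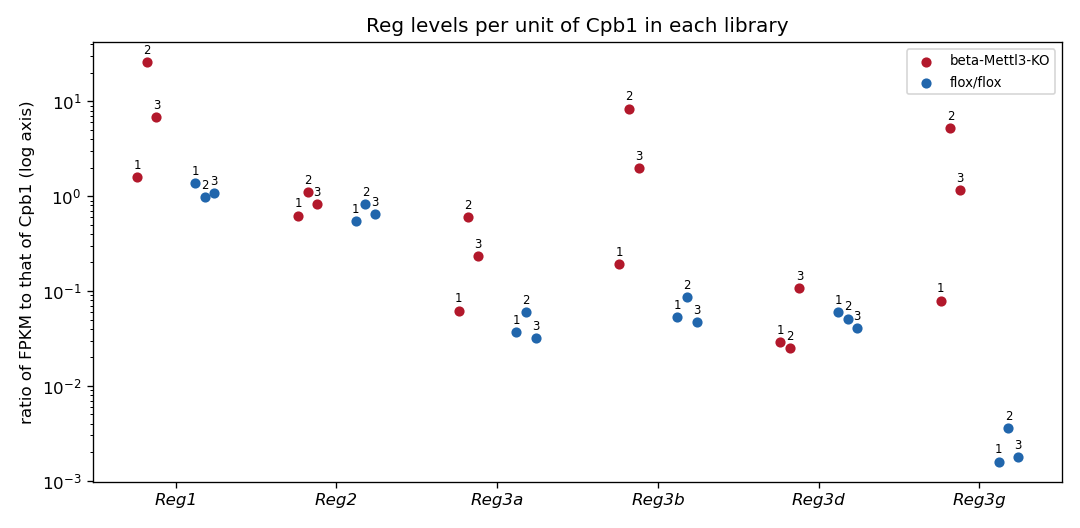
Ratio of each Reg gene's FPKM to that of Cpb1 (vertical log axis) in the 3 labelled-knockout (red, left of each pair) and 3 flox/flox libraries (blue), with replicate numbers. Reg2 stays between 0.544 and 1.10 in all 6 libraries, whereas Reg3g runs from 0.0794 to 5.26 in labelled-knockout libraries and stays under 0.00357 or at it in flox/flox libraries.

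Marker genes of other cells moved in the same libraries. Of 21 tested enterocyte markers 20 rose, 0 fell and 1 did not pass, with a median log2 difference of 2.94. Among them Fabp2 rose by 6.28 ± 0.93 and Rbp2, a retinol-binding protein, by 6.26 ± 0.91 (SE, limma adjusted p = 0.00361 and 0.00334). Both calls were lost in limma-voom (adjusted p = 0.393 and 0.346) and with no filter (limma adjusted p = 0.0528 and 0.05015). Over all tested genes 16.9% passed as higher and 17.2% as lower. Of the 21, 13 averaged under 1 FPKM in flox/flox libraries and so entered the test only through the labelled-knockout group, which gives their count and median no weight as support. Of the other 8, 7 rose. The summed level of all 24 was 858, 3029 and 1802 CPM in labelled-knockout replicates 1 to 3, against 264 to 283 in flox/flox libraries, where the brush-border phosphatase gene Alpi and the keratin gene Krt20 had 0 reads. Without labelled-knockout replicates 2 and 3, 6 of 13 tested rose, and with all libraries 5 of 21 rose in limma-voom and 4 of 24 with no filter. Of 27 tested acinar markers 0 rose, 18 fell and 9 did not pass, with a median of -1.36, and among them Cpb1 fell by 1.80 ± 0.52 while the bile salt-activated lipase gene Cel fell by 1.67 ± 0.45 (adjusted p = 0.0379 for Cpb1 and 0.029 for Cel). Cpb1 did not pass once replicate 2 or 3 of the labelled-knockout group (adjusted p = 0.088 and 0.0918) or of the flox/flox group (adjusted p = 0.094 and 0.0962) was left out, nor when scaled to own reads (adjusted p = 0.0547), and Cel likewise did not pass without any of those 4 libraries (adjusted p = 0.0655 to 0.0785). The 31 acinar markers summed to 1410, 1478 and 1395 CPM in labelled-knockout replicates 1 to 3, against 1268, 3863 and 2076 in flox/flox replicates 1 to 3. Dmbt1 held 584 CPM of the sum in labelled-knockout replicate 2, and without it the sums were 1370, 894 and 1111 CPM in labelled-knockout replicates 1 to 3, in the order of Cpb1. The falls dropped to 4 without flox/flox replicate 2, to 1 without labelled-knockout replicate 2 and to 0 when replicate 3 of either group was left out. Scaled to own reads, 3 acinar markers fell and 1 rose, and with no filter 0 of 31 fell in limma. The part of these cells in the Reg differences was not tested.

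Markers of Paneth cells, another known source of Reg3b and Reg3g, were low. The 12 Paneth markers summed to 8.54, 15.7 and 11.2 CPM in labelled-knockout replicates 1 to 3 and to 0.904 to 2.07 in flox/flox libraries, and 4 defensins (Defa17, Defa22, Defa3 and Defa5) had no read in any library. Of the 2 tested, Lyz1, which encodes lysozyme, rose by 2.64 ± 0.17 (SE, limma adjusted p = 0.000179) and Mmp7, a matrix protease, did not pass (1.21 ± 0.52, adjusted p = 0.116). Lyz1 was highest in replicate 1 of the labelled-knockout group, at 4.82, 3.56 and 3.86 FPKM in replicates 1 to 3. Mmp7, at 1.26, 6.99 and 3.97 FPKM there, and the Paneth sum had the order of Reg3g. That order was shared by 24.1% of tested genes. Reads of Defa24 numbered 0, 23 and 7 in labelled-knockout replicates 1 to 3, against 0 in each flox/flox library. Of 6 tested goblet-cell markers 4 rose, 0 fell and 2 did not pass, among them Tff3, a trefoil peptide, by 4.66 ± 0.55 and Clca1, a secreted mucus-layer protein, by 2.31 ± 0.55 (adjusted p = 0.00156 and 0.0195), and Muc2, the main intestinal mucin, had 3 reads in all. Of the 6, 5 entered only through the labelled-knockout group. The rises came to 1 without labelled-knockout replicate 2 or 3, without flox/flox replicate 3, with quantile normalization, in limma-voom or with no filter. Clca1 lost its call without flox/flox replicate 3 (adjusted p = 0.0532) and Tff3 in limma-voom (adjusted p = 0.0617). The goblet list came to 42.9 to 199.7 CPM in labelled-knockout and 19.8 to 48.7 in flox/flox libraries. The 10 tested lymphocyte and plasma-cell markers all rose, also without labelled-knockout replicates 2 and 3 (8 of 8 tested), among them Jchain, of plasma cells, by 6.36 ± 0.29 and Cd79b, of B cells, by 5.29 ± 0.17 (adjusted p = 6.03e-05 and 1.92e-05). Of the 10, 8 entered only through the labelled-knockout group. All 14 of that list came to 576 to 794 CPM in labelled-knockout and 17.3 to 25.9 in flox/flox libraries. Of 8 tested duct markers 1 rose (Epcam, an epithelial adhesion molecule, 0.65 ± 0.09, adjusted p = 0.00261), 1 fell and 6 did not pass, and the list came to 688 to 724 CPM in labelled-knockout and 374 to 516 in flox/flox libraries. With own-read scaling 2 duct markers rose and 0 fell. Over all tested genes 34.0% passed with the deposited scaling.

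Transcripts of the cytokines known to induce Reg genes were scarce in both groups. Of 10 listed, only Il1b passed the filter on low values, and it fell by 0.75 ± 0.14 (SE, limma adjusted p = 0.00788), or by 0.37 with own-read scaling, which did not pass (adjusted p = 0.058). Il22, the T-cell and innate lymphoid cytokine, was nearly undetected, at 4, 0 and 1 reads in labelled-knockout replicates 1 to 3 and 0 in every flox/flox library. Reads of Il6 came to 10, 3 and 8 in labelled-knockout replicates 1 to 3, against 3, 8 and 13 in flox/flox replicates 1 to 3. Those of Tnf, in the same order, came to 33, 48 and 31 against 17, 8 and 8. Lif had 40, 38 and 25 reads against 15, 11 and 11, and Ifng 4, 4 and 1 against 0 in each. In FPKM Tnf, Lif and Ifng were higher in every labelled-knockout library, while the other cytokines under the filter overlapped. The groups did not overlap in 50.5% of tested genes. Il22ra1, the epithelial subunit of the IL-22 receptor, was below the filter, at 3, 57 and 28 reads in labelled-knockout replicates 1 to 3 and 0, 3 and 0 reads in flox/flox replicates 1 to 3. Its order within the labelled-knockout group (replicate 2, then 3, then 1) was that of Reg3g, shared by 24.1% of tested genes. Of 12 tested receptors 2 rose, 2 fell and 8 did not pass, a share near the 34.0% of all tested genes that passed. With own-read scaling, where the median log2 difference of all tested genes was 0.36, 6 receptors rose and 1 fell. Il6ra, the IL-6 receptor, rose to 42.3 ± 4.94 FPKM in labelled-knockout libraries, against 18.1 ± 2.03 FPKM in flox/flox libraries (SD, n = 3 each, adjusted p = 0.000849), and Lifr, the receptor of leukemia inhibitory factor, fell to 6.99 ± 0.455 against 12.3 ± 0.517 FPKM (adjusted p = 0.000797).

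Genes downstream of these receptors were tested next. Of all tested genes 34.0% passed in either direction, so counts near that share do not set a list apart. Of 13 tested genes of JAK-STAT3 and MyD88 signalling 4 rose, 0 fell and 9 did not pass, among them Traf6, an adaptor below MyD88, by 0.40 ± 0.10 and Jak2, a receptor-bound kinase, by 0.33 ± 0.07 (SE, limma adjusted p = 0.0231 and 0.0136). Scaled to own reads, which moved the median log2 difference of all tested genes to 0.36, 10 of the 13 rose. With the deposited scaling 1 rose without labelled-knockout replicate 3 or without flox/flox replicate 2. The call of Traf6 was lost in 4 of 6 fits with 1 library left out, those without labelled-knockout replicate 1 or 3 or without flox/flox replicate 2 or 3 (adjusted p = 0.0547 to 0.0829). Stat3 itself was at 12.2, 11.1 and 11.9 FPKM in labelled-knockout replicates 1 to 3, against 11.7, 12.7 and 11.2 FPKM in flox/flox replicates 1 to 3 (-0.02 ± 0.07 SE, adjusted p = 0.884), and scaled to own reads its difference was 0.37 (adjusted p = 0.0054). Of 9 tested STAT3 targets and acute-phase genes 2 rose, 2 fell and 5 did not pass, while 5 rose and 0 fell with own-read scaling. The kinase Pim1 rose by 0.97 ± 0.20 and the repressor Bcl6 by 0.93 ± 0.18 (adjusted p = 0.0115 and 0.00994). Socs3, the feedback inhibitor of STAT3, was at 56.0, 36.3 and 43.5 FPKM in labelled-knockout replicates 1 to 3, against 48.3, 56.8 and 50.4 FPKM in flox/flox replicates 1 to 3 (-0.21 ± 0.16, adjusted p = 0.344). In labelled-knockout libraries Stat3, Socs3 and Bcl6 ran from replicate 1 over 3 down to 2, an order shared by 27.2% of tested genes. Pim1, at 6.73, 10.9 and 8.52 FPKM in labelled-knockout replicates 1 to 3, had the order of Reg3g, shared by 24.1%. Activity of STAT3 was not measured. Extl3, proposed as a receptor of Reg proteins, was at 7.62 to 7.83 FPKM in labelled-knockout and 6.24 to 7.07 FPKM in flox/flox libraries (0.19 ± 0.07, adjusted p = 0.0804), and it passed as higher only with own-read scaling.

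The genes with the profile most like each member were found among 7045 genes with a mean of at least 5 FPKM, by the root mean square difference of centred log2(FPKM + 0.5) values over the 6 libraries. Profiles nearest to Reg2 were those of the acinar enzymes Pnlip, Ctrl and Ctrb1 (0.162, 0.179 and 0.20). Nearest to Reg3g were Adh6a, an alcohol dehydrogenase, and the enterocyte brush-border genes Mep1b and Cdhr5 (0.165, 0.198 and 0.206). Adh6a, Mep1b and Cdhr5 reached a mean of 5 FPKM only through the labelled-knockout group, with flox/flox means of 0.00908, 0.00964 and 0.0579 FPKM. So near 0 the added 0.5 levels flox/flox values, as for Reg3g, and the match gives no weight to a cell type. Dmbt1, a secreted scavenger-receptor protein of mucosal epithelia that stands among the acinar markers here, was nearest to Reg3b (0.118). Cyp4f14 and the intestinal glucose transporter Slc5a1 followed (0.301 and 0.337). Dmbt1, Cyp4f14 and Slc5a1 likewise reached a mean of 5 FPKM only through the labelled-knockout group. Their flox/flox means were 4.4, 0.494 and 1.51 FPKM, so these matches give no weight to a cell type either. Reg1 was nearest to St3gal4, Lgals9 and Isg15 (0.207, 0.275 and 0.336), and Reg3a to Cdkn1a, Zg16 and Mgst1 (0.167, 0.292 and 0.299). Mgst1 averaged 3.73 FPKM in flox/flox libraries and so also reached 5 FPKM only through the labelled-knockout group. Reg3d was nearest to Sycn, an acinar granule protein, Rpl30-ps10 and Tmigd3 (0.281, 0.314 and 0.354).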

How the data were processed

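The labels describe 6 RNA sequencing libraries of islets, grouped here by title and genotype. HISAT2 2.0.5, featureCounts 1.5.0-p3, DESeq2 1.16.1 and GRCm38.p6 are named in the submitters' processing notes, with no role or settings, and strandedness is not given in the sources used here. The authors deposited FPKM values for 54556 genes with gene lengths, and 0 per-sample columns were left unused. Multiplied by gene length, FPKM values were whole multiples of a library's lowest step (100% of values within 0.1), and these were taken as reads. Median-of-ratios factors computed on the table were 1 in each library, so that scaling had been applied before deposit, which leaves total RNA per cell unmeasured. A count of 0 in a library allows up to 3 reads, and intervals and floors cover counting error only.

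Genes with a mean of at least 1 FPKM (14497) entered limma 3.58.1 (R 4.3.3, eBayes with a trend) on log2(FPKM + 0.5), two-sided, with Benjamini-Hochberg adjustment over all tested genes and a threshold of 0.05. On simulated counts for the 14497 genes, 200 of them changed, it called 88.2% of genes changed 2-fold and 97.9% changed 4-fold, with 8 false calls. The simulation gave every gene the same dispersion, 0.00488. Reg3g varied 20.7-fold within the labelled-knockout group, so these shares do not describe genes as variable as the Reg genes. The labels do not tie libraries to animals, and p-values reflect library-to-library spread, which may be technical. Same-numbered libraries were checked for pairing, and the numbers were not taken to pair them. Libraries of a group were not duplicates, with a chi-square per degree of freedom of 6.51 to 29.4 between any pair. CPM values are reads scaled to a library's own total, without division by gene length. Planned tests with a count model were replaced by limma-voom because the values are FPKM. Alternatives were other pseudocounts, filters and scalings, a replicate block, limma-voom and left-out libraries.

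The members, gene lists and tests were chosen with earlier results of these data known. Named genes are the members, Cpb1, Fabp2 and Mettl3, Reg4, Extl3, Il22ra1, Stat3 and Socs3, the members of each list past the threshold with the largest log2 differences (2 where there were as many), the 3 genes most like each member (leaving out Gm and Rik symbols), and the coding genes flanking the cluster. Of these lists, genes named otherwise (Il6, Il22, Tnf, Lif, Ifng, Alpi, Krt20, Muc2, Mmp7, the defensins and Dmbt1) were chosen after their values were seen. Some genes that this rule would name are not reported here. Motifs and coding identity (Biopython 1.88) were computed from RefSeq promoters and GENCODE M21 transcripts. All 6 members matched by symbol.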

Additional observations from a re-analysis of the deposited data

How the results depend on the processing

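Of the 6 members, 1 passed with all libraries. The number passing was 2 with own-read scaling, quantile normalization or the replicate block, 0 with no filter, with limma-voom or without labelled-knockout replicates 2 and 3, and 0 to 2 with 1 library left out. With 1 library left out, log2 differences ran from 0.14 to 1.30 for Reg1, -2.03 to -0.91 for Reg2, -0.0559 to 0.862 for Reg3a, 1.72 to 3.51 for Reg3b, -1.55 to -0.85 for Reg3d (5 fits, since it fell under the filter without flox/flox replicate 2) and 3.02 to 4.99 for Reg3g. Reg3g lost its call with no filter (3.86) and in limma-voom (6.30), an alternative added after the data were seen. Reg3b passed with own-read scaling (2.84) and with the replicate block (2.49), and Reg3d with quantile normalization (-1.50). Without labelled-knockout replicates 2 and 3, which leaves 1 library assumed to vary like the others, Reg1 was -0.58 and Reg3a -0.41.

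Over all genes 4935 passed (2446 higher, 2489 lower), and 2650 with no filter, 3090 with a filter at 5 FPKM, 8352 with own-read scaling (7643 higher, 709 lower), 1132 without labelled-knockout replicates 2 and 3, and 2713 to 4213 with 1 library left out. Of the listed genes other than Reg, 70 passed, 25 with no filter, 21 without labelled-knockout replicates 2 and 3, and 32 to 69 with 1 library left out. The cause of these shifts was not tested. Stat3 changed sign with own-read scaling (0.37), quantile normalization (0.0059), without labelled-knockout replicates 2 and 3 (0.0396), and in some fits with 1 library left out (-0.0529 to 0.0295), and Socs3 with own-read scaling (0.19) and without those replicates (0.12). The correlation of deviations between same-numbered libraries was 0.081, 0.075 and 0.042 over all genes, which cannot exclude a pairing. Reg1, Reg3a, Reg3b and Reg3g had the same order in both groups (replicate 2, then 3, then 1). With the replicate block their SE were 0.24, 0.25, 0.41 and 0.71, against 0.59, 0.53, 0.94 and 0.92 without it. Those of Reg2 and Reg3d were larger with the block (0.59 and 0.51, against 0.54 and 0.45). Under the replicate block 4659 genes passed and 4 acinar markers fell. Tests with edgeR and DESeq2 were not run because the deposited values are not counts. The order of Fabp2 was shared by 4 members in FPKM and in CPM, and the log2 ratio of the group means of the summed family was 0.70 in FPKM and 1.33 in CPM. Depth limits Reg3d and Reg3a, with 2 to 51 reads per library.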

Other observations

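Of 14 listed antibacterial and mucosal defence genes of the gut other than Reg, 3 were tested, and Lypd8 and Pigr have not been described above. Lypd8, a secreted protein that binds flagellated bacteria, was at 5.57, 143 and 66.2 FPKM in labelled-knockout replicates 1 to 3, against 0.0515, 0.216 and 0.42 FPKM in flox/flox replicates 1 to 3, and rose by 5.76 ± 1.08 on the log2 scale (SE, n = 3 each, limma adjusted p = 0.00856). Its call was lost in limma-voom (adjusted p = 0.396) and with no filter (adjusted p = 0.0928). Pigr, the receptor that carries IgA across the epithelium, was at 26.9, 120.6 and 68.0 FPKM in labelled-knockout replicates 1 to 3, against 3.07, 2.41 and 2.51 FPKM in flox/flox replicates 1 to 3, and rose by 4.28 ± 0.49 (adjusted p = 0.00143). Together with Lyz1, all 3 tested genes rose, 2 of them (Lypd8 and Lyz1) having entered only through the labelled-knockout group. Over all tested genes 16.9% passed as higher. Both Lypd8 and Pigr had the within-group order of Fabp2 in labelled-knockout libraries, an order shared by 24.1% of tested genes.

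The distant family member Reg4, on chromosome 3 from 98222156 to 98236748 (GRCm38, plus strand), gave 1, 13 and 6 reads in labelled-knockout replicates 1 to 3 and 0 in every flox/flox library. It was under the filter and was not tested. Against a floor of 3 reads over the flox/flox group, its share of reads was at least 6.42-fold higher, a bound of 3.29-fold to 9.35-fold with 1 library left out and lowest without labelled-knockout replicate 2. Duox2, an oxidase of the gut epithelium, gave 3, 175 and 80 reads in labelled-knockout replicates 1 to 3 and 0, 0 and 3 in flox/flox replicates 1 to 3, and its partner Duoxa2 had 0, 33 and 22 reads against 0 in each. Retnlb, a goblet-cell protein against bacteria, had no read in any library. Duox2, Duoxa2 and Retnlb were named after their values were seen.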
